A study of Homo sapiens with 4 samples.

Results

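LINC01470, TCERG1L and TCERG1L-AS1 are 3 genes at which p53 ChIP-seq of wildtype HCT116 spheroid cells gave high-ranking peaks and the p53-R273H cells none. They were chosen by a rule on the peak lists themselves: a high-ranking wildtype peak within the gene span or at most 50 kb outside, with no R273H peak overlapping it by at least 1 bp. The genes are 3 of 59679 annotated on chromosomes 1 to 22, X and Y, and they carry 0 of the 2008 R273H peaks and 2 of the 2059 wildtype peaks, because TCERG1L and TCERG1L-AS1 lie over the same peak. The scores, ranks and missing partners of these 2 peaks are what chose them and are given as a description, with no test.

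HCT116 is an established human colorectal carcinoma line. The cells were grown as spheroids, at passages 13 to 18, in serum-free medium that held EGF and basic FGF, 20 ng/ml of each. The p53-R273H and the wildtype control genotype each had 1 ChIP library with the p53 antibody DO-1 and 1 input library, 4 libraries in all. How R273H was brought into the cells, and whether a line is 1 clone, the labels do not say. With 1 ChIP library per genotype no difference has a replicate check and no p-value is given. Read depth is unknown from peak lists. The score of a peak is the authors' own, was given separately for each list and serves here only to describe or rank peaks within that list.

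p53 is a transcription factor that binds DNA as a tetramer. Its response element is a pair of short boxes, each with a C and a G around a core of A or T, and many of its direct targets carry such an element near their start. R273H exchanges an arginine that contacts DNA, in the part of the protein that reads this element. The DO-1 antibody binds the N-terminal part of p53, which both forms share. TCERG1L is a protein-coding gene, and methylation of its promoter has been described in colorectal tumours. TCERG1L-AS1 is a short antisense long noncoding RNA (lncRNA) gene at the far end of TCERG1L. LINC01470 is an intergenic lncRNA gene for which no function is given here.

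The TCERG1L peak lay across the annotated start of TCERG1L-AS1, so reference sequence for part of it was at hand. The RefSeq promoter window of TCERG1L-AS1, from 250 bases before its start to 50 after it, is chr10:131094968-131095267 on the plus strand of hg38, and 266 of its 300 bases were inside the wildtype peak. It is printed because it is the sequence under the strongest promoter peak without an R273H partner. Capitals mark a word of 11 bases that occurs 6 times:
TCERG1L-AS1 promoter: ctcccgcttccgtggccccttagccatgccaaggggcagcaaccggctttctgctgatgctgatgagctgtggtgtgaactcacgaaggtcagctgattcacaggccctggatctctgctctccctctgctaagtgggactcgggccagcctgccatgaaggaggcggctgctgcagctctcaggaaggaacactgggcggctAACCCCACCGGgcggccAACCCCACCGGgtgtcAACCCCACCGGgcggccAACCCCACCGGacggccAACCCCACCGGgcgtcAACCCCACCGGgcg

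The word AACCCCACCGG recurred every 16 or 17 bases, from 47 bases before the start of TCERG1L-AS1 to 46 bases after it. Of its 6 copies, 4 lay wholly inside the wildtype peak and 2 beyond the peak's higher-coordinate edge. On either strand the word was found in 5 of 35097 promoter windows, 0.0142%, and more than once in 1 window, that of TCERG1L-AS1. It was singled out after the sequence was seen, as the longest word present at least 6 times. G and C made up 66.7% of the window, against a median of 58.7% over all windows (quartiles 47.0 and 68.0).

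**Figure D1:**
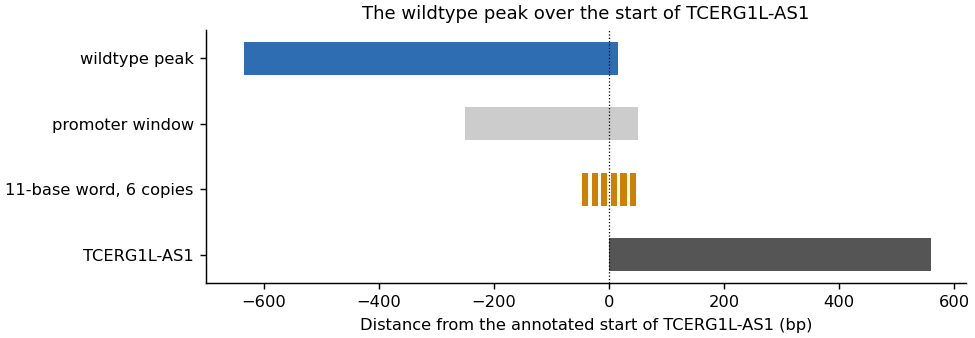
Position of the wildtype peak, the RefSeq promoter window, the 6 copies of the 11-base word and TCERG1L-AS1 itself, in bp from the annotated start of TCERG1L-AS1. The peak runs from 635 bp before the start to 15 bp after it, and 4 of the 6 copies lie inside it.

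The window was scanned for the p53 response element, taken as a pair of 10-base boxes of the standard consensus with a spacer of 0 to 13 bases and at most 2 mismatches in all. The consensus box reads the same on both strands, so 1 scan covers both. No match was found in the TCERG1L-AS1 window. A match was held by 11 of the 30 windows under an R273H peak (36.7%), by 17 of the 65 under a wildtype peak (26.2%) and by 7.83% of all promoter windows. The first 2 sets are not separate, since a window under a shared peak can count in both. Of the 65 windows, 43 were under a wildtype peak without an R273H partner, and their share with a match is not given here. The best pair in the TCERG1L-AS1 window had 4 mismatches, a level reached by 84.2% of all windows, and both of its boxes ran into the repeated word. Its second box lay beyond the peak's higher-coordinate edge. With its flanks, the pair had 22 of 37 bases inside the wildtype peak. The rest of the peak, toward lower coordinates, was not scanned, so the absence of a match covers only these letters.

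Windows of 8 established p53 targets under a wildtype peak were examined in the same way, and 5 of them had no match at 2 mismatches either. The best pairs of BBC3 and RPS27L had 3 mismatches, those of MIR34AHG and TRIAP1 had 4, as in TCERG1L-AS1, and that of PLK3 had 5. Those of BBC3 and PLK3 lay outside the wildtype peak. The wildtype peak over the BBC3 window scored 102 and had no R273H partner. It was not the stronger, shared BBC3 peak, which scored 1212 in wildtype. The other 3 of the 8 targets, which had a match wholly inside their wildtype peak, are printed after the best TCERG1L-AS1 pair, with the boxes in capitals. DDB2 encodes a nucleotide excision repair protein, PURPL is a p53-induced lncRNA gene and AEN encodes an apoptosis-enhancing nuclease. The positions on hg38, all on the plus strand, are chr10:131095212-131095248 for TCERG1L-AS1, chr11:47214974-47215004 for DDB2, chr5:27472160-27472189 for PURPL and chr15:88621301-88621330 for AEN:
TCERG1L-AS1, 4 mismatches: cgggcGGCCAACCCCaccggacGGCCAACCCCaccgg
DDB2, 0 mismatches: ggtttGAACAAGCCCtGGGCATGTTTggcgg
PURPL, 0 mismatches: gcccaGGGCTTGTCTGGGCATGCCCacagt
AEN, 2 mismatches: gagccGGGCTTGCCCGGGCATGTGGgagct

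Like TCERG1L-AS1, DDB2 and PURPL had a wildtype peak and no R273H peak, and their wildtype scores were 253 and 239. AEN had a peak in both genotypes, scoring 521 in R273H and 1209.99 in wildtype. Wildtype-only peaks were thus found both over windows with a full p53 element and over a window without one. The part of the TCERG1L peak outside its window was not scanned, so whether that peak holds an element is unknown.

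LINC01470 (gene ID 101927134) spans 353385 bp of chromosome 5, from 152618965 to 152972349 on hg38. Its span held 0 R273H peaks and 1 wildtype peak, at chr5:152811886-152812571. That wildtype peak was 686 bp wide, scored 1569.56 and ranked 63 of 2059. It began 192921 bp from the lower-coordinate end of the gene, 54.6% of the way along it, and ended 159778 bp from the other end, so it lay far from either gene end. Exons, introns and the strand of LINC01470 were not used here.

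TCERG1L (gene ID 256536) is a protein-coding gene of 219331 bp on chromosome 10, from 131092391 to 131311721 on the minus strand. It held 0 R273H peaks and 1 wildtype peak, at chr10:131094583-131095233, which was 651 bp wide, scored 847 and ranked 121 of 2059. The peak began 2192 bp inside the lower-coordinate end of TCERG1L, which is where a minus-strand gene ends. The promoter window of TCERG1L itself, at the opposite end, lay 216439 bp away and had no peak in either list. TCERG1L-AS1 (gene ID 101927489) is 560 bp long, from 131095218 to 131095777 on the plus strand, and the peak covered its first 16 bases.

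With peaks counted inside or within 50 kb, 0 of the 3 genes had an R273H peak and 3 of 3 had a wildtype peak. Over all annotated genes 6.16% had a peak of the R273H list and 8.84% one of the wildtype list. The rule chose the genes for a wildtype peak that no R273H peak overlapped, so nothing is read from the difference.

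TCERG1L-AS1 was 1 of 42 genes whose promoter window was overlapped by a wildtype peak without an R273H partner. These were 43 windows, 0.123% of 35097, whereas any R273H peak overlapped 0.0855% and any wildtype peak 0.185% of the windows. By wildtype score TCERG1L-AS1 came first among the 42, followed by PCNA, the replication clamp gene (277), DDB2 and PURPL. These followers were picked after their values were seen.

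The absence of an R273H peak was common among weak wildtype peaks and rare among strong ones. Of all wildtype peaks, 78.8% had no R273H partner. In the score class of 50 to 100 the share was 94.98% (1418 of 1493), and from 200 to 500 it was 31.1% (51 of 164). Among the 202 wildtype peaks scoring at least 500 it was 2.48% (5 peaks, 95% exact binomial interval 0.808 to 5.68). That share was 4.95% when partners needed midpoints within 200 bp and 11.4% when they needed a reciprocal overlap of 50%. Intervals cover counting error only. The LINC01470 peak was the 1 peak of 40 without a partner between 1200 and 2000, and the TCERG1L peak the 1 of 42 between 800 and 1200.

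**Figure D2:**
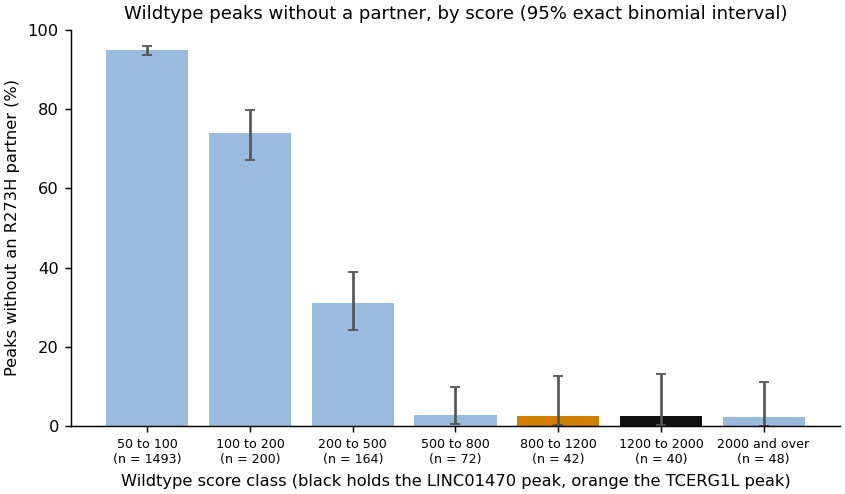
Share of wildtype peaks without an overlapping R273H peak (percent) by wildtype score class, with 95% exact binomial intervals and the number of peaks under each bar. The share is 94.98% in the lowest class and 2.38% and 2.50% in the classes that hold the TCERG1L peak (orange) and the LINC01470 peak (black).

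To show what the R273H list held at comparable wildtype peaks, the 10 shared wildtype peaks next above and the 10 next below each site in wildtype score were taken. Around LINC01470 these had wildtype scores of 1409.72 to 1833. The R273H peaks they overlapped scored 238 at the lowest, 567 at the median and 1250.17 at the highest, and ranked between 19 and 150 of 2008. None of these 20 R273H peaks was near the lowest score of that list, 50.02.

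The shared wildtype peaks closest to LINC01470 in score were named by their nearest gene. Next above it were peaks near LOC124900928 at the start of chromosome 5, in ANK1, which encodes a membrane skeleton ankyrin, and in LINC00475, and their R273H scores were 238, 639 and 600.45. Next below were peaks near CD70, a tumour necrosis factor family ligand gene, in CLSTN2 and near TMEM260, with R273H scores of 761, 1071 and 527. All of these R273H peaks stood well inside the upper part of their list.

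Around TCERG1L the picture was wider. The 20 shared wildtype peaks scored 794 to 924, and their R273H partners scored 51.4 at the lowest, 288 at the median and 789.8 at the highest. Of the 20 partners, 3 scored below 100 in the R273H list, and the lowest of them, 176360 bp from LINC03000, ranked 1826 of 2008. The lowest R273H partner around TCERG1L thus came within 2 units of the lowest score in the R273H list, 50.02. The next lowest scored 66.6, and the lowest of those around LINC01470 was 238.

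Next above TCERG1L in wildtype score were shared peaks 10030 bp from OR52K3P, in NSMCE2, a SUMO ligase gene, and in RPL23AP87, with R273H scores of 66.6, 789.8 and 312. Next below were peaks in PRKAG2, an AMP-activated kinase subunit gene, in PTCHD4, a known p53 target, and in ALKAL1, with R273H scores of 351, 264 and 247. An R273H peak below the reporting threshold would not be listed, so a weak R273H signal at either site cannot be told apart from none.

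**Figure D3:**
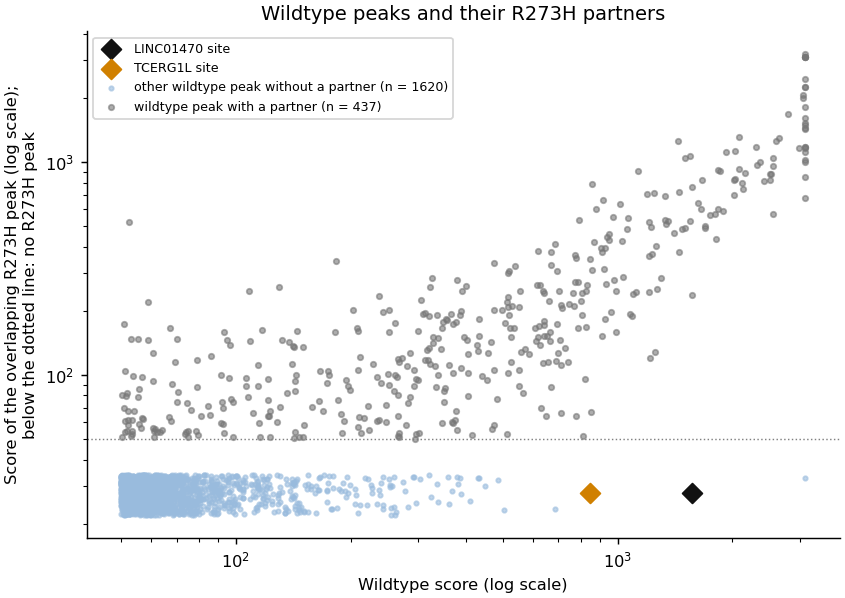
Wildtype score (x axis, log scale) of each wildtype peak against the score of the R273H peak it overlaps (y axis, log scale), with peaks that have no R273H partner spread below the dotted line at 50. Diamonds mark the TCERG1L (orange) and LINC01470 (black) peaks, which sit at 847 and 1569.56 on the x axis; shared peaks at similar wildtype scores have R273H scores from 51.4 to 1250.17.

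The nearest R273H peak was far from LINC01470 and closer to TCERG1L. For LINC01470 it lay 1965180 bp toward lower coordinates, in IRGM, an autophagy-linked GTPase gene, at chr5:150846524-150846706. That R273H peak scored 50.6, ranked 1941 of 2008 and had no wildtype partner of its own. On the other side the first R273H peak was 7685926 bp away, 11071 bp from MIR3142HG, with a score of 111. The stretch of chromosome 5 without an R273H peak was 9.65 Mb long and held 1 wildtype peak besides that of LINC01470, in LSM11, with a score of 56.7. Over the genome 64 of 1984 stretches between neighbouring R273H peaks were longer. This counts stretches and not bases. Long stretches hold more of the genome than their number shows, and that share is not given here. The wildtype list was sparse here too, with no other peak for 11.6 Mb below and 4.94 Mb above the site.

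For TCERG1L the nearest R273H peak was at chr10:131020366-131020634, 73949 bp from the wildtype peak and 71757 bp outside the gene. It was 269 bp wide, scored 93.0, ranked 444 of 2008 and had no wildtype partner; the nearest annotated gene was LOC107984186, 41516 bp away. Toward higher coordinates the first R273H peak was 2680694 bp away, near RPL23AP60, with a score of 159. This one overlapped a wildtype peak with a score of 665, so a shared site lay between TCERG1L and the end of the chromosome. Between the 2 R273H peaks the wildtype list held 11 peaks besides that of TCERG1L, scoring 51.1 to 132. All 11 lay toward the far R273H peak. The wildtype list had no other peak for 2.5 Mb below and 2.57 Mb above the TCERG1L site.

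**Figure D4:**
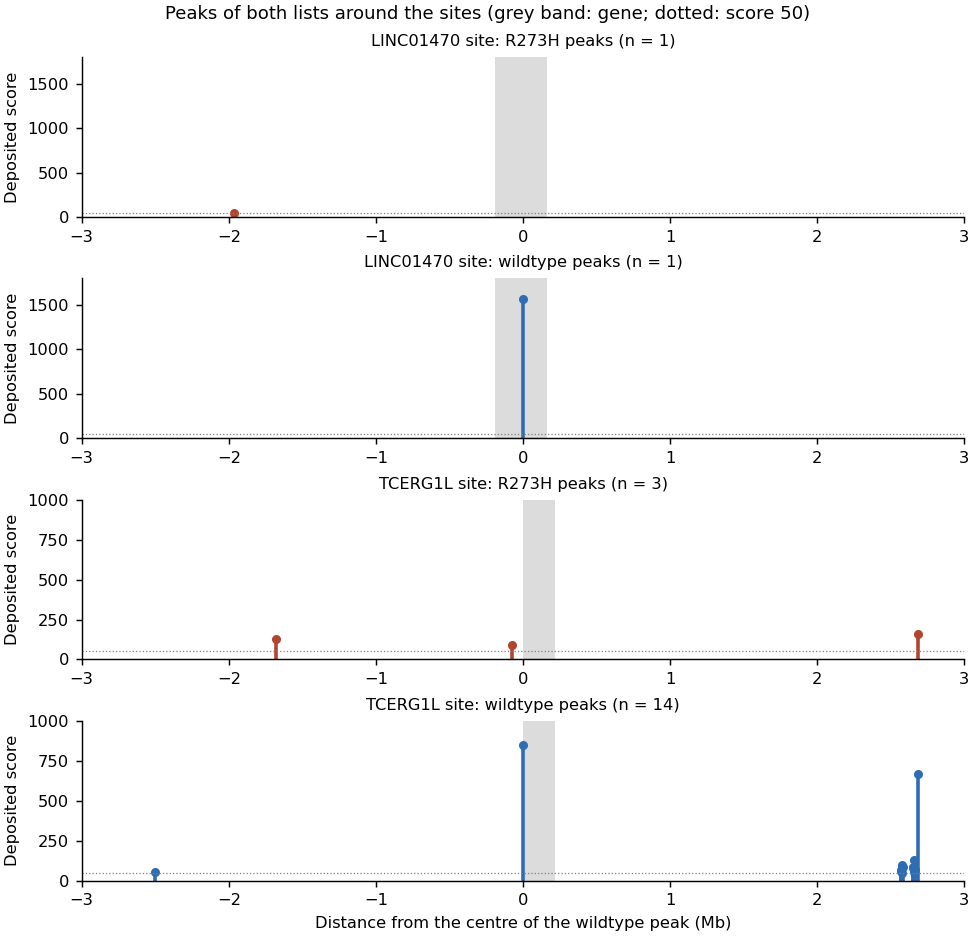
Deposited scores of the R273H (red) and wildtype (blue) peaks within 3 Mb of the centre of each wildtype peak, by distance in Mb; grey bands are the genes and the dotted line is a score of 50. Near LINC01470 there is 1 R273H peak, of score 50.6, and near TCERG1L there are 3, scoring 93.0 to 159.

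Among the 1622 wildtype peaks without a partner, the median gap to the nearest R273H peak was 247442 bp (quartiles 42023 and 1225393). The gap was smaller than that of LINC01470 for 83.0% of them and smaller than that of TCERG1L for 32.4%. The 56 unpartnered wildtype peaks scoring at least 200 had a median gap of 1696119 bp. LINC01470 lay above that median and TCERG1L below its lower quartile of 480334 bp.

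**Figure D5:**
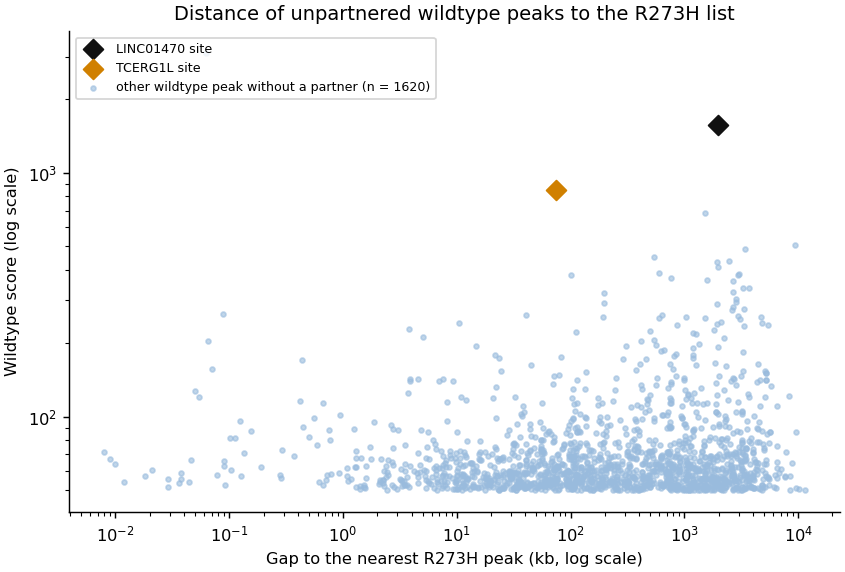
Gap to the nearest R273H peak (x axis, kb, log scale) against wildtype score (y axis, log scale) for the 1622 wildtype peaks without a partner. The diamonds are the TCERG1L peak (orange, gap of 73949 bp) and the LINC01470 peak (black, gap of 1965180 bp).

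Peak width, which the rule did not use but which comes from the same peak call, was ordinary for peaks of such scores. The LINC01470 peak was 686 bp wide, and the 100 wildtype peaks nearest in rank had a median width of 705.5 bp (quartiles 633 and 808), with 57 of them wider. The TCERG1L peak was 651 bp wide against a median of 610.0 bp (546.5 and 674), with 33 of 100 wider. Both were wider than the median of all wildtype peaks, 324 bp.

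Both sites had few annotated genes around them. Within 500 kb of the LINC01470 peak there were 7 annotated genes, of which 1, NMUR2, a neuromedin U receptor gene 406607 bp away, was protein-coding. On the other side the nearest protein-coding gene was GRIA1, which encodes a glutamate receptor subunit, at 677044 bp. Within 500 kb of the TCERG1L peak there were also 7 genes, with TCERG1L itself the 1 that was protein-coding. Its nearest protein-coding neighbours were LOC124902561 at 895259 bp and PPP2R2D, a phosphatase regulatory subunit gene, at 805775 bp. The 197 shared wildtype peaks scoring at least 500 had a median of 24 genes within this distance (quartiles 15 and 34) and a median of 7 protein-coding genes. Of these 197 peaks, 14 (7.11%) had no protein-coding gene within it. Both sites had 1, so that share does not describe them. How many of the 197 had as few genes as the sites is not given here.

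The nearest annotated genes outside the LINC01470 peak were LOC124901117, 83241 bp below it and inside the span of LINC01470, and GRIA1 above it. For the TCERG1L peak they were LOC107984186, 25635 bp below it, and LOC105378563, 107320 bp above it.

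On their own chromosomes both sites were among the strongest wildtype sites. LINC01470 ranked 5 among 99 wildtype peaks on chromosome 5, after shared peaks near PLK2, a polo-like kinase gene (2135), near RNA5SP181 (2113), in CAMK4 (1744) and near LOC124900928 (1571). TCERG1L ranked 4 among 76 on chromosome 10, after shared peaks near BUB1P1 (2422), in CFL1P1 (937) and in ALOX5, the 5-lipoxygenase gene (934). These neighbours in rank were picked after their values were seen.

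The sites most like them are the other 3 wildtype peaks scoring at least 500 without an R273H partner. A peak of 18225 bp that overlapped RNA45SN2 and RNA28SN2, which are ribosomal RNA genes, scored 3100, but an R273H peak lay 62 bp from its edge. Several wildtype peaks, that of MIR34AHG among them, tied at exactly 3100 and shared rank 2, so the score does not order them. STAT3, which encodes a transcription factor activated by cytokines, held a peak that scored 686 and was 1503954 bp from the nearest R273H peak, with 56 genes within 500 kb. A peak 11822 bp from RPS2P6 on chromosome 18 scored 505 and was 9450842 bp from the nearest R273H peak, with 16 genes within 500 kb. Just under the score of 500 came peaks near VENTXP2 (487), LMNTD1 (450.31) and LINC01049 (433), which lay 33720, 62725 and 56478 bp from these genes. LINC01470, STAT3 and RPS2P6 had 0 R273H peaks within 500 kb, TCERG1L had 1 and the ribosomal RNA site 17.

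Known p53 targets gave the context for peaks of this strength. Of 30 established targets, 15 had an R273H peak inside the gene or within 10 kb and 20 had a wildtype peak, against 2.36% and 3.48% of all annotated genes. Over the whole list, 197 of the 202 wildtype peaks scoring at least 500 had an R273H partner. Among the targets, the 10 with the highest wildtype scores all had one at that peak. They were CDKN1A, the gene of the cyclin kinase inhibitor p21 (1427 in R273H and 3106 in wildtype), MIR34AHG, the host of miR-34a (1160.05 and 3100), PLK2 (746 and 2135), RPS27L (503 and 1698), BBC3, which encodes PUMA (245 and 1212), AEN, NEAT1, the paraspeckle scaffold lncRNA gene (396 and 926.5), RRM2B, a ribonucleotide reductase subunit gene (367 and 776), TRIAP1 (152 and 641) and PVT1 (144 and 613).

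In wildtype score LINC01470 fell between RPS27L and BBC3, and TCERG1L between NEAT1 and RRM2B. The 5 listed targets with a wildtype peak and no R273H peak all scored lower in the wildtype list than either site: DDB2 (253), PURPL (239), BAX, a mitochondrial pore gene (220.47), TP53TG1 (111) and TP53INP1 (88.1). These 5 fall outside the rule for named genes and are given to complete the count. At such scores a missing partner was common over the whole wildtype list. Its share was 31.1% from 200 to 500, 74.0% from 100 to 200 and 94.98% from 50 to 100.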

How the data were processed

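p53 ChIP-seq libraries and inputs of HCT116 spheroid cells were analysed from 2 deposited peak lists. Chromatin was crosslinked for 5 minutes in 1% formaldehyde and sonicated for 10 minutes, per the labels' protocols. The submitters' processing notes list Bowtie 1.2.2, MACS, HOMER and hg38, with no roles. The unit is the authors' deposited score per peak, whose scale is not stated; the peak threshold, the use of the input and any pooling are likewise not given in the sources used here. Each list was matched to a ChIP sample by its name and the sample title, since the file named in the wildtype sample's description is the R273H list. R273H peaks carry the numbers 193 to 2200 and wildtype peaks 228 to 2286, with no gap. Lower numbers are absent from both lists, so any peaks that carried them could not be analysed.

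Overlap, gaps between peak edges, ranks and gene distances were computed with Python 3.11.15, pandas 2.3.3 and numpy 2.4.6, and exact (Clopper-Pearson) intervals with scipy 1.17.1. Scripts were tested on simulated data. Genes and promoter windows came from RefSeq GRCh38.p14, the assembly of hg38; the 3 genes all matched the gene table by symbol and 2 of 3 the promoter table. The members, the list of p53 targets and the rule for named genes were chosen with earlier results of these data known. The rule named the 3 genes, their neighbours, wildtype peaks of at least 500 without a partner, the 3 shared peaks next above and below each site in score, the nearest R273H peaks, and up to 10 p53 targets by wildtype score; a further planned gene list is not reported here. Alternatives were other overlap rules, gene windows, score filters and motif settings.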

Additional observations from a re-analysis of the deposited data

How the results depend on the processing

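Both sites stayed without an R273H partner under a reciprocal overlap of 50%, midpoints within 200 bp and gaps of up to 1000 or 10000 bp. The 2 wildtype peaks were also the ones found inside the genes, within 10 kb, 100 kb and 1 Mb, and at scores of at least 63.4, the median over both lists. Of the 36 alternatives, 29 kept the value or its interval and 7 did not. R273H peaks at the 3 genes numbered 1 in place of 0 within 100 kb and 1 within 1 Mb, both times the peak with a score of 93.0 below TCERG1L. With R273H peaks of at least that median score alone, the nearest one to LINC01470 was 7685926 bp away, since the IRGM peak scored below it. The share of wildtype peaks without a partner was 82.0% under reciprocal overlap, 76.3% with gaps of up to 1000 bp and 69.6% with gaps of up to 10000 bp, and for peaks scoring at least 500 it was 11.4% under reciprocal overlap. No p53 element was found in the TCERG1L-AS1 window with at most 1 mismatch, or without a spacer and with at most 3. No paired analysis was possible because each genotype had 1 ChIP library and no test was made; leaving out a replicate was impossible for the same reason. Read depth, which sets how weak a peak can be listed, is unknown.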
